A study of Xenopus tropicalis with 44 samples.

Results

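Wild-type (WT) Xenopus tropicalis embryos, from the western clawed frog, at the 16-cell stage (stage 5) were compared with WT embryos at the 8-cell stage (stage 4). The comparison rests on 4 libraries of embryos, 2 per stage, out of 44 in the series, and was chosen by the stage and genotype in the sample labels alone. The series sequenced messenger RNA of embryos in 22 groups of 2 libraries, in a study of early zygotic transcription and the maternal factors E2f1 and Otx1, which its title names. WT embryos had no treatment. 2 other pairs of groups are used beside the comparison, and E2F1 MO embryos of the 4-cell stage for a share of counts alone. E2F1 MO embryos at the 8- and 16-cell stages are labelled as injected with E2F1 MO, where MO is the usual short form of a morpholino, an antisense oligomer. They carry no other allele or agent in the labels, no control morpholino is among the groups analysed here, and a level of e2f1 RNA does not check a morpholino, which acts on translation or splicing. WT embryos of the 4-cell stage (stage 3) and of stage 6 are untreated embryos one division step earlier and later. Nothing in the labels says whether the 2 libraries of a group came from different clutches. The p-values rest on the spread between libraries of the same group, estimated over all 44 libraries and not the 4 compared alone. That spread may be technical, and a clutch cannot be told apart from a stage.

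A cleaving frog embryo lives on RNA and protein laid down in the egg, because its own genome is largely silent until the blastula. Which maternal RNAs are translated is set in large part by their poly(A) tails: cytoplasmic polyadenylation lengthens the tails of stored RNAs, and deadenylases shorten those of others after fertilization. In frogs, deadenylated maternal RNAs can persist for some time before they are degraded. The labels name an mRNA kit, and such kits usually select RNA by its tail. In libraries made so, a loss of RNA and a shortening of its tail give the same fall, and a new tail gives the same rise as new RNA. In these data such causes cannot be told apart. Levels are shares of a library and not molecules per embryo, since the labels name no spike-in RNA.

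The 8-cell libraries held 20599539 and 18611141 counts, the 16-cell libraries 17824125 and 20548839, and all 44 held 9266513 to 37174326. Replicates correlated with Pearson r of 0.998 across genes at each of the 2 stages. The scaling factors of TMM, which assumes that most genes keep their share, were 0.83 and 0.84 at the 8-cell stage and 0.93 and 0.93 at the 16-cell stage, so the choice of scaling moves every change. Relative to TMM, scaling by total counts shifts the log2 change of genes upward by 0.16 (median over genes at 1 CPM or more). Results are therefore given under both scalings. CPM is the usual depth-scaled count of a gene, here after TMM. Calls rest on edgeR's quasi-likelihood test, at 0.05 after Benjamini-Hochberg adjustment over the 16064 genes tested. Maternal markers were present at both stages. The oocyte linker histone h1-8 stood at 1703 and 1713 CPM in 8-cell and at 1408 and 1320 CPM in 16-cell embryos. Of 46 early zygotic genes tested, 4 reached 1 CPM in 8-cell embryos, and the list's summed level of 416 to 432 CPM was mostly the maternally present id2, at 402 and 387 CPM. Among 34 markers of blood, liver and ovarian follicle, 7 were tested. Their summed level was 20.6 to 23.1 CPM at the 8-cell and 13.0 to 15.1 CPM at the 16-cell stage, nearly all of it the anion exchanger slc4a1. The globin genes hba2, hba3 and hba4 and the steroidogenic genes cyp11a1 and cyp19a1 had 0 counts in all 4 libraries. Other markers of the list had low counts. Among them, ptprc had 18 and 19 counts in 8-cell and 8 and 12 in 16-cell libraries. The counts of fgg were 6 and 2, then 4 and 3, and those of epor 3 and 4, then 1 and 3.

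Between the 8-cell and the 16-cell stage, within one cleavage division, the make-up of the RNA pool moved away from its most abundant species. Under TMM 4382 of 16064 genes were called, 27.3% of those tested. Of these, 2099 (13.1%) were higher and 2283 (14.2%) lower in 16-cell embryos. Changes were mostly small. The median log2 change was 0.46 in the genes called higher and -0.34 in those called lower, and at least a 2-fold change was seen in 166 of the former and 95 of the latter. Under total counts 4789 genes (29.8%) were called, 3778 (23.5%) higher and 1011 (6.29%) lower. All 2099 TMM rises and 1011 of the TMM falls were called under both scalings, which is 19.4% of genes in all. The other 1272 falls were called under TMM alone, and rises made up 47.9% of all calls under TMM but 78.9% under total counts. Without the second 16-cell library 2897 genes were called under TMM, and without the second 8-cell library 1390 rises were. The adjacent steps, which share libraries with this one, had fewer calls under TMM: 1415 genes (8.81%) from the 4-cell to the 8-cell stage and 1795 (11.2%) from the 16-cell stage to stage 6. The differences between these numbers of calls were not tested.

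The direction of change followed the level of the RNA. Grouped by the level per kilobase of gene length at the 4-cell stage, in libraries outside the comparison, 104 of the 112 genes over 500 CPM per kb (92.9%) were called lower under TMM and 0 higher. Between 100 and 500 CPM per kb the shares were 74.4% lower and 1.23% higher. Between 5 and 20 CPM per kb 27.8% were higher and 9.43% lower, and between 1 and 5 CPM per kb 27.3% were higher and 3.17% lower. Between 20 and 100 CPM per kb, in 3018 genes, 10.2% were higher and 31.4% lower under TMM, a balance that turned under total counts to 27.6% higher and 11.7% lower. In the 6259 genes at 1 CPM per kb or less 3.71% were higher and 1.26% lower. Under total counts falls were again more frequent at the abundant end, with 67.9% lower and 1.79% higher over 500 CPM per kb against 1.3% lower and 42.1% higher between 1 and 5 CPM per kb. In 8-cell libraries the genes called lower took 56.2 and 56.4% of all counts and in 16-cell libraries 49.7 and 49.1%. The genes called higher went from 7.04 and 6.97% of counts to 9.97 and 10.4%. These 4 libraries chose both gene sets, so the shares describe the size of the shift and do not test it. In the 4-cell libraries, which did not choose them, the genes called lower took 57.9 and 58.3% of counts, and at stage 6 46.1 and 46.7%.

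**Figure D1:**
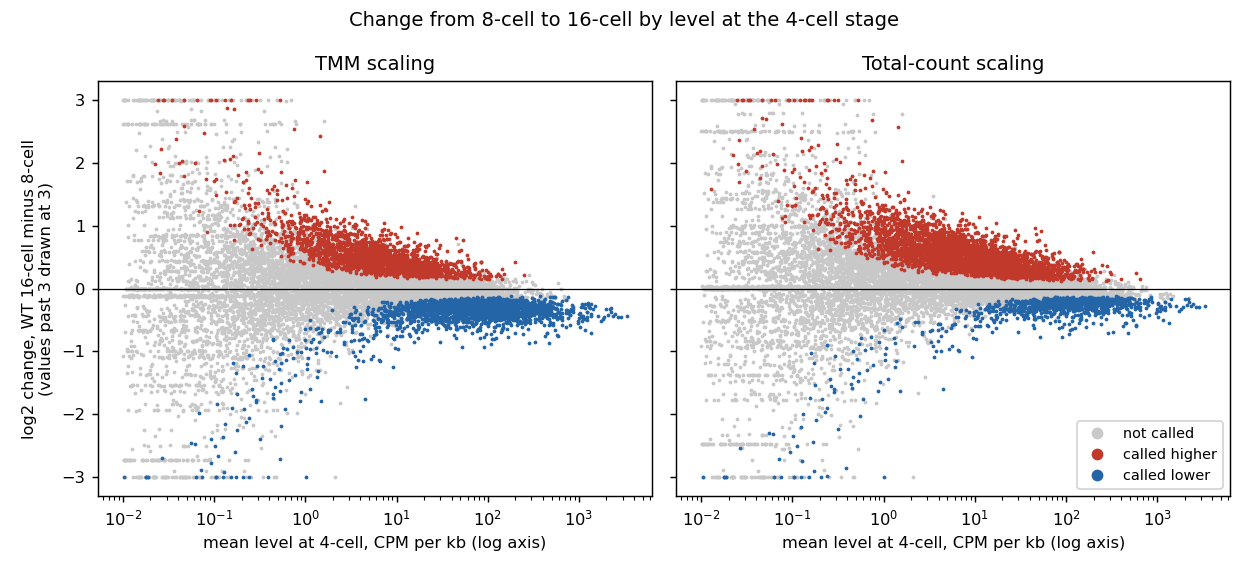
Log2 change of each gene from the 8-cell to the 16-cell stage in WT embryos (vertical) against its mean level at the 4-cell stage in CPM per kb (horizontal, log axis), under TMM at left and total-count scaling at right; red points were called higher, blue lower and grey not called. Blue points gather at the abundant end and red points below 100 CPM per kb, and the whole cloud lies higher by 0.16 under total counts.

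Not every abundant RNA was called lower. The 8 genes over 500 CPM per kb that were not called under TMM were hsp90ab1, alyref, glul, ctnnb1, ddx5, oaz1, slbp and pfn1, which are named because they are all the exceptions and were chosen after their values were seen. The RNA of ctnnb1, which encodes the β-catenin of the maternal Wnt pathway, stood at 2131 and 2104 CPM in 8-cell and 2104 and 2130 CPM in 16-cell embryos, with fully overlapping libraries. Its log2 change was -0.00 ± 0.05 (SE) under TMM and 0.16 under total counts, where edgeR's adjusted p of 0.00246 called it higher. For slbp, whose protein binds histone mRNA, levels were 2050.0 and 2011 CPM against 1866 and 1856 CPM, a log2 change of -0.13 that was not called (adjusted p = 0.0672). In a TMM fit of the 4 compared libraries alone, slbp, hsp90ab1, alyref, glul, oaz1 and pfn1 were called lower (adjusted p up to 0.00356) and ddx5 higher. Under total counts over all 44 libraries the genes called lower there had log2 changes of -0.03 to 0.04 and were not called. In that fit edgeR's test called ddx5 higher (0.24, adjusted p = 2.05e-05). Among genes over 100 CPM per kb, 13 were called higher. They include vegt, the vegetally localized T-box factor that specifies endoderm, which rose from 351 and 344 CPM to 389 and 409 CPM (log2 change 0.20 ± 0.05, adjusted p = 0.00404), a call lost without the second 16-cell library (adjusted p = 0.0735). Its RNA also rose in E2F1 MO embryos, by 0.26 on the log2 scale. The nucleolin RNA ncl rose from 433 and 442 CPM to 532 and 551 CPM. Others among the 13 were ppm1g, btg5.1, dctpp1, dnaja1, ddit4, idh2, ppia, chtop, g3bp1 and atp5f1b. Of the 13, only ncl, btg5.1 and idh2 kept their call whichever of the 4 libraries was left out, and ddit4 had the highest adjusted p, 0.406 without the second 16-cell library.

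Several RNAs of the cell division machinery fell under both scalings. A list of 5 RNAs described, mainly in Xenopus laevis, as losing their tails after fertilization had 4 members called lower under both scalings, where 6.29% of all genes were, and 0 called higher under TMM. All 4 stood over 100 CPM per kb at the 4-cell stage, where 76.2% of all genes were called lower under TMM and 41.5% under total counts. Its median log2 change was -0.70 under TMM and -0.55 under total counts, against 0 and 0.099 over all genes tested. The RNA of kif11, the kinesin that pushes spindle poles apart, stood at 726 and 713 CPM in 8-cell and 392.2 and 394.1 CPM in 16-cell embryos. That is a fall on the log2 scale of -0.87 ± 0.07 (adjusted p = 6.39e-12), or -0.71 under total counts. It was part of a longer decline, from 1070.4 and 1021 CPM at the 4-cell stage to 236 and 232 CPM at stage 6. The microtubule-depolymerizing kinesin kif2c went from 919 and 918 CPM to 513 and 496 CPM, and the mitotic kinase aurka from 723 and 701 CPM to 436 and 438 CPM. In each of the 3 genes both 16-cell libraries were far below both 8-cell libraries. The kinase cdk2, which drives entry into DNA replication, fell less, with a log2 change of -0.48 ± 0.07. The fifth member, the meiotic kinase mos, did not fall in this step. It stood at 131 and 123 CPM, then 142 and 151 CPM, a change of 0.21 that was not called under TMM (adjusted p = 0.104) and was called higher under total counts (0.36, adjusted p = 0.00648). It was also called higher under TMM in a fit of the 4 compared libraries alone (adjusted p = 0.000604) and with no filter on low counts (adjusted p = 0.037).

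Lists are read beside all genes tested, of which 14.2% fell and 13.1% rose under TMM, and 6.29% fell and 23.5% rose under total counts. Those shares are lowered by 6259 scarce genes, at 1 CPM per kb or less at the 4-cell stage. Of these, 3.71% rose and 1.26% fell under TMM. A list of better expressed genes can therefore exceed the shares of all genes in both directions. Of 43 mitotic kinases, phosphatases and their regulators, 21 fell (48.8%) and 2 rose (4.65%) under TMM. Under total counts 18 fell (41.9%) and 10 rose (23.3%), the latter at the share of all genes. The spindle checkpoint protein mad2l1 fell from 201 and 209 CPM to 127 and 124 CPM (log2 change -0.71 ± 0.08, adjusted p = 1.33e-08). The kinase melk went from 231 and 234 CPM to 148 and 148 CPM, and cdk1, the kinase that drives mitosis, from 227 and 223 CPM to 154 and 147 CPM. The polo kinase plk1 and the maternal Cdk1 inhibitor wee2 fell by 0.55 and 0.52 on the log2 scale. The 2 that rose were haspin, a histone kinase, and pkmyt1, a membrane-bound inhibitor of Cdk1; the haspin call was lost without the first 8-cell or second 16-cell library (adjusted p up to 0.129). Kinetochore, spindle, cohesin and condensin genes had 32 of 60 lower (53.3%) and 12 higher (20%) under TMM, and 20 lower (33.3%) and 21 higher (35%) under total counts. Falls outnumbered rises under TMM, and the 2 numbers were nearly equal under total counts. Over all genes rises outnumbered falls under total counts. Falls called under both scalings included the spindle protein tacc3, from 1234 and 1240.0 CPM to 748 and 740 CPM, and the chromokinesin kif4a, from 840 and 836 CPM to 520.3 and 493 CPM. Rises under both included the centromere proteins cenpf and cenpo, at 0.56 and 0.58, and the spindle pole protein numa1, at 0.56, whose call was lost without the second 8-cell library (adjusted p = 0.0603). Of 12 cyclins 8 fell (66.7%) and 2 rose (16.7%) under TMM, and 6 fell (50%) and 3 rose (25%) under total counts, so the rises were near the shares of all genes. Of those that fell, 6 stood over 100 CPM per kb at the 4-cell stage and fell under both scalings. The other 2, ccne2 and ccno, stood at 20 to 100 CPM per kb and were not called under total counts; without at least 1 of the 4 libraries their TMM calls were lost too (adjusted p up to 0.192 and 0.068). The mitotic cyclins ccnb1, ccnb1.2 and ccnb2 fell by 0.45, 0.43 and 0.41, and ccna1 by 0.37. Whether ccnb1 and ccnb1.2 share reads was not checked. The level of ccne1 went from 1350.2 and 1363 CPM to 980.1 and 984 CPM. The cyclins that rose were scarce: ccnb3 went from 5.97 and 5.55 CPM to 9.64 and 10.7 CPM, and ccnf from 6.84 and 6.45 CPM to 9.10 and 10.6 CPM. The ccnf call was lost without the second 8-cell or the second 16-cell library (adjusted p up to 0.132).

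**Figure D2:**
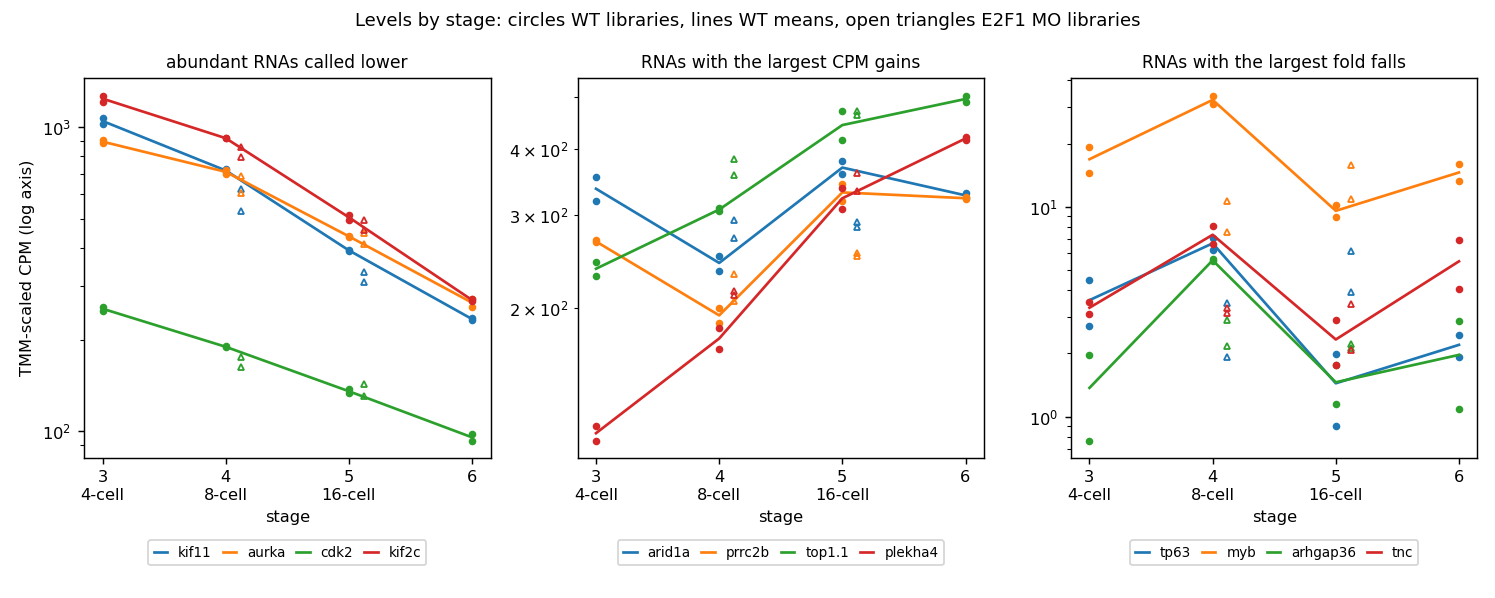
TMM-scaled CPM (vertical, log axis) at stages 3 to 6 (horizontal) for 4 abundant RNAs called lower, 4 RNAs with large CPM gains and 4 with the largest fold falls; filled circles are the 2 WT libraries of each stage, lines join WT means, and open triangles are the E2F1 MO libraries of the 8- and 16-cell stages. The kif11, kif2c, aurka and cdk2 lines fall at every step, plekha4 and top1.1 rise at every step, arid1a and prrc2b dip at the 8-cell stage, and tp63, myb, arhgap36 and tnc have their highest WT mean there.

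Within condensin, RNAs moved in both directions. The complexes were singled out after their values were seen, so their counts describe these subunits alone. Of all genes tested 14.2% fell and 13.1% rose under TMM, and 6.29% fell and 23.5% rose under total counts. Of the 8 condensin subunits, which compact chromosomes for mitosis, 4 fell and 4 rose under TMM, and 1 fell and 4 rose under total counts. The fall was largest in the most abundant, ncapd2, from 4136 and 4059 CPM to 2708 and 2658 CPM (log2 change -0.61 ± 0.05, adjusted p = 2.96e-12). The others that fell were smc4 (1764 and 1762 CPM to 1528 and 1417 CPM), smc2 (407 and 416 CPM to 359 and 355 CPM) and ncaph2 (227 and 227 CPM to 196 and 202 CPM), and of these 4 falls that of ncapd2 was called under total counts as well. All 4 that rose did so under both scalings. They were ncapg (161 and 155 CPM to 192 and 192 CPM), ncaph (48.5 and 49.1 CPM to 63.8 and 58.8 CPM), ncapd3 (92.5 and 91.0 CPM to 111 and 124 CPM) and ncapg2 (41.3 and 38.6 CPM to 58.3 and 63.9 CPM). The calls of smc4, smc2, ncaph2 and ncapd3 were each lost without at least 1 of the 4 libraries (adjusted p up to 0.0714, 0.104, 0.0752 and 0.271), and ncapd3 lost its call without any one of them. Under TMM the condensin subunits above 200 CPM at the 8-cell stage fell and those under 200 CPM rose. That cut was set after the values were seen and uses libraries of the comparison. Under total counts smc4, smc2 and ncaph2 were not called by edgeR's test (adjusted p = 0.173, 0.615 and 0.783). The origin recognition complex, which marks replication origins, had 2 of 6 subunits lower and 0 higher under TMM: orc1 fell by 0.55 and orc6 by 0.43, both above 500 CPM at the 8-cell stage, while orc2, orc3, orc4 and orc5, all under 100 CPM, had changes of 0.04, 0.20, -0.01 and 0.10 that were not called. Under total counts orc1 and orc6 fell as well and orc3 was called higher (0.35, adjusted p = 0.0185). Of MCM2 to MCM7, the subunits of the replicative helicase, mcm7 fell from 2153 and 2116 CPM to 1658 and 1651 CPM, and mcm2 and mcm4 rose, mcm2 from 31.2 and 31.2 CPM to 48.7 and 50.7 CPM and mcm4 from 133 and 136 CPM to 154 and 155 CPM. The mcm4 call was lost without any one of the 4 libraries (adjusted p up to 0.19). The changes of mcm3, mcm5 and mcm6 were 0.04, 0.11 and 0.03 and were not called under TMM. Under total counts 4 of the 6 rose, mcm2, mcm4, mcm3 (0.19, adjusted p = 0.0457) and mcm5 (0.27, adjusted p = 0.00147), and mcm7 fell. The ribonucleotide reductase subunits, which supply deoxynucleotides, also parted: rrm1 rose from 27.4 and 25.4 CPM to 38.5 and 40.5 CPM and rrm2.1, which has a near copy in rrm2.2, fell from 759 and 757 CPM to 495 and 466 CPM. Over all 78 replication genes 27 fell (34.6%) and 11 rose (14.1%) under TMM, and 16 fell (20.5%) and 25 rose (32.1%) under total counts. The share that rose under TMM was near that of all genes.

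**Figure D3:**
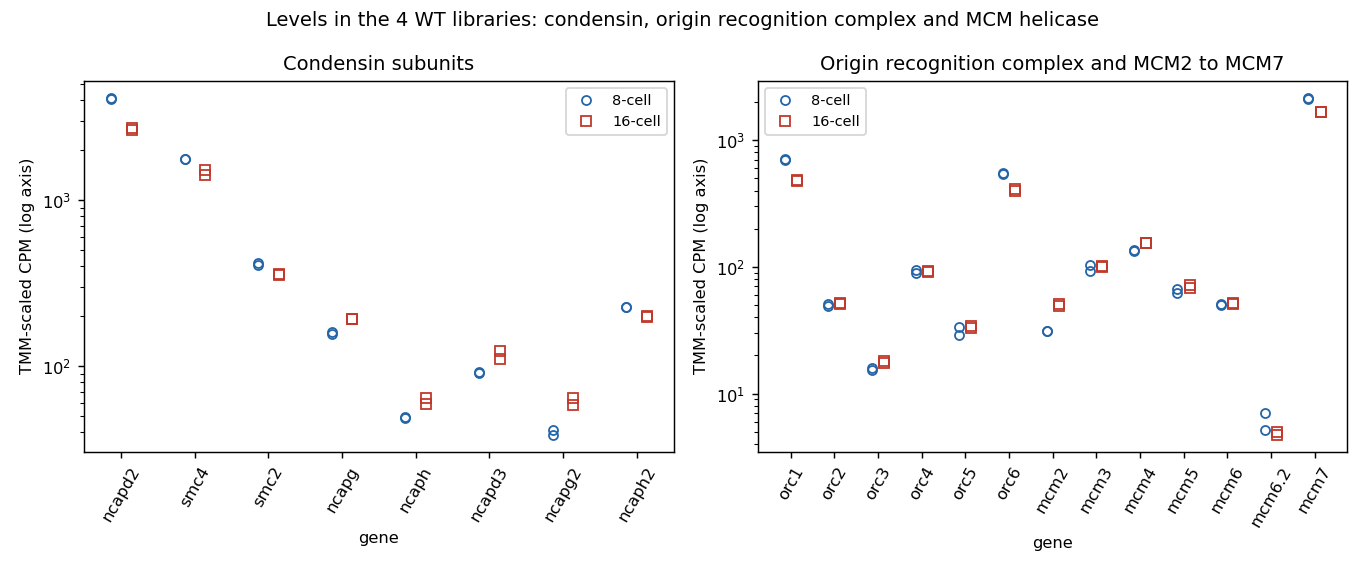
TMM-scaled CPM (vertical, log axis) in the 4 WT libraries for the 8 condensin subunits at left and for the origin recognition complex, MCM2 to MCM7 and mcm6.2 at right; blue circles are the 2 8-cell and red squares the 2 16-cell libraries. The abundant ncapd2, orc1, orc6 and mcm7 lie lower at the 16-cell stage, and ncapg2 and mcm2 lie higher.

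The split by level ran through the other cell cycle lists too. It was made after the values were seen. Members over 100 CPM per kb at the 4-cell stage were called lower under TMM in 24 of 27 kinetochore and spindle genes (88.9%), 17 of 20 mitotic kinases and phosphatases (85%), 20 of 25 replication genes (80%) and 6 of 6 cyclins. Over all genes tested at that level 890 of 1168 (76.2%) were called lower. Members at 20 CPM per kb or less were called higher in 9 of 13, 2 of 9, 8 of 20 and 2 of 4, where 1779 of 11878 genes of all kinds (15%) were. The 11878 include 6259 genes at 1 CPM per kb or less, of which 3.71% were called higher. Over all genes the share was 27.3% between 1 and 5 CPM per kb and 27.8% between 5 and 20 CPM per kb. The lists were not split at 1 CPM per kb. Under total counts the abundant members were called lower in 17 of 27, 15 of 20, 14 of 25 and 6 of 6, against 41.5% of all genes at that level.

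Among genes that control maternal RNA itself, 41 act in polyadenylation and storage. Of these 11 rose (26.8%) and 10 fell (24.4%) under TMM, where 13.1% and 14.2% of all genes did. Under total counts 19 rose (46.3%) and 5 fell (12.2%), against 23.5% and 6.29% of all genes. The shares of all genes are lowered by 6259 genes at 1 CPM per kb or less at the 4-cell stage. All 41 members reached 1 CPM in 8-cell embryos. Of the 12 members over 100 CPM per kb at the 4-cell stage 6 fell under TMM (50%). Over all genes at that level 76.2% fell, and the difference was not tested. The rises included sympk, the scaffold of the polyadenylation complex, from 8.07 and 8.62 CPM to 18.3 and 16.6 CPM (log2 change 1.06 ± 0.14, adjusted p = 2.91e-07), and cpsf1, a subunit of the complex that recognizes the polyadenylation signal, from 9.30 and 9.06 CPM to 16.2 and 20.1 CPM. The RNA-binding protein of the oocyte zar1 rose from 3.28 and 5.04 CPM to 7.23 and 6.46 CPM, a call lost without the first 8-cell library (adjusted p = 0.196). Among the falls were the poly(A)-binding proteins pabpc1 and pabpc1l and the cytoplasmic poly(A) polymerase tent2, at -0.31, -0.37 and -0.38. The main regulator of cytoplasmic polyadenylation, cpeb1, was not called, at 859 and 864 CPM against 922 and 878 CPM (log2 change 0.06, adjusted p = 0.687). With the 4 compared libraries fitted alone, edgeR's test called cpeb1 higher (log2 change 0.07, adjusted p = 0.0435). Under total counts over all 44 libraries the same test did not call it (adjusted p = 0.0604). Of 69 genes for deadenylation and decay 13 rose (18.8%) and 18 fell (26.1%) under TMM, and 21 rose (30.4%) and 10 fell (14.5%) under total counts. Of its 15 members over 100 CPM per kb at the 4-cell stage 66.7% fell under TMM, fewer than the 76.2% of all genes at that level, a difference that was not tested. The largest fall in this list was btg4, an adaptor of the CCR4-NOT deadenylase that drives maternal RNA clearance in mouse and zebrafish. It went from 952 and 936 CPM to 593 and 564 CPM (log2 change -0.71 ± 0.06, adjusted p = 7.66e-11). Deadenylase subunits cnot3 and cnot11 rose by 0.51 and 0.55, and cnot8 fell by 0.44, where the cnot11 call was lost without the second 16-cell library (adjusted p = 0.13). The nonsense-mediated decay factor upf2 rose from 24.3 and 23.5 CPM to 38.5 and 41.7 CPM, and its partner upf1 fell by 0.39.

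For genes of protein turnover and protein synthesis the shares of all genes are again 13.1% higher and 14.2% lower under TMM and 23.5% and 6.29% under total counts. In the proteasome, 10 of 38 genes tested rose (26.3%) and 1 fell (2.63%) under TMM, and 18 rose (47.4%) and 0 fell under total counts, with a median log2 change of 0.12 under TMM and 0.28 under total counts. All 10 rises were in the regulatory particle, which recognizes and unfolds substrates: psmc3, an ATPase of its base, rose from 6.90 and 6.58 CPM to 10.2 and 10.8 CPM, and the lid subunit psmd3 from 8.13 and 6.70 CPM to 12.7 and 10.9 CPM. Of the 19 members at 20 CPM per kb or less at the 4-cell stage 6 rose under TMM (31.6%). Over all genes 27.3% rose between 1 and 5 CPM per kb and 27.8% between 5 and 20 CPM per kb. Of the 15 at 20 to 100 CPM per kb 4 rose (26.7%) and 0 fell, where 10.2% and 31.4% of all genes did. Of the 4 over 100 CPM per kb 1 fell, where 76.2% of all genes did. These differences were not tested. In E2F1 MO embryos 4 of the 38 rose and 0 fell under TMM, where 7.56% and 9.18% of all genes did. Of 79 cytosolic ribosomal protein genes, many of which have near copies, 66 were not called, 12 fell (15.2%, near the share of all genes) and 1, rplp0, rose under TMM, while 3 fell (3.8%) and 6 rose (7.59%) under total counts. The rplp0 call was lost without either 8-cell library or the first 16-cell library (adjusted p up to 0.104). Of the 52 members at 20 to 100 CPM per kb at the 4-cell stage 8 fell (15.4%) and 1 rose (1.92%) under TMM. Over all genes at that level 31.4% fell and 10.2% rose, and the difference was not tested. Of the 5 over 100 CPM per kb 4 fell (80%), near the 76.2% of all genes. The library values of rps10 were 73.3 and 71.9 CPM against 53.9 and 53.7 CPM, a fall called under both scalings. In E2F1 MO embryos 25 of the 79 fell and 1 rose under TMM, where 9.18% and 7.56% of all genes did. Their median log2 change was -0.26 there against -0.07 in WT embryos. From the 4-cell stage to stage 6 in WT embryos 42 fell and 3 rose, where 23.5% and 24.5% of all genes did. The list's differences between these comparisons were not tested. In WT embryos 17 of 77 mitochondrial ribosomal protein genes fell (22.1%) and 8 rose (10.4%) under TMM. Under total counts 5 fell (6.49%) and 16 rose (20.8%), and the last 3 of these shares were near those of all genes. Of the 25 members at 20 to 100 CPM per kb at the 4-cell stage 12 fell (48%) and 1 rose (4%) under TMM. Over all genes at that level 31.4% fell and 10.2% rose, and the difference was not tested. In the respiratory chain 7 of 77 fell (9.09%), 5 rose (6.49%) and 65 were not called under TMM. Under total counts 2 fell (2.6%) and 12 rose (15.6%). Among 48 translation initiation genes 16 fell (33.3%) and 9 rose (18.8%) under TMM, with 4 (8.33%) and 15 (31.2%) under total counts. Of the 17 members over 100 CPM per kb at the 4-cell stage 11 fell under TMM (64.7%). Over all genes at that level 76.2% fell, and the difference was not tested. The 3 largest rises were in eif4g3, a scaffold of the cap complex, from 14.2 and 16.7 CPM to 27.4 and 34.1 CPM, in eif2b1, a subunit of the eIF2 exchange factor, from 1.58 and 2.11 CPM to 3.01 and 3.91 CPM, and in the eIF3 core subunit eif3b, from 13.98 and 13.79 CPM to 25.5 and 24.4 CPM. The eif4g3 and eif2b1 calls were each lost without the first 8-cell or the second 16-cell library (adjusted p up to 0.137 and 0.143).

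Chromatin proteins are stored in the egg to package the DNA of the multiplying nuclei, and 36 such genes were tested. Of these 16 fell (44.4%) and 1 rose (2.78%) under TMM, while 9 fell (25%) and 7 rose (19.4%) under total counts, against 14.2%, 13.1%, 6.29% and 23.5% of all genes. All 16 falls were among the 20 members over 100 CPM per kb at the 4-cell stage (80%), near the 76.2% of all genes at that level. The maintenance methyltransferase dnmt1 lost more CPM than any other named gene, from 5642 and 5595 CPM to 4117 and 4125 CPM (log2 change -0.45 ± 0.08, adjusted p = 0.000117). The chromatin protein hmgb2 went from 2150.1 and 2134 CPM to 1618 and 1542 CPM, and nucleophosmin npm1 from 1596 and 1586 CPM to 1195 and 1161 CPM. The histone chaperone nap1l1 was the one riser under TMM, from 137 and 142 CPM to 232 and 242 CPM (0.77 ± 0.06, adjusted p = 1.01e-11). It stood at 111 and 112 CPM in 4-cell embryos and at 296 and 318 CPM at stage 6. Of 47 oocyte and germ plasm genes 10 fell (21.3%) and 5 rose (10.6%) under TMM, with 3 (6.38%) and 15 (31.9%) under total counts. The share that fell under total counts was that of all genes. Of the 9 members over 100 CPM per kb at the 4-cell stage 6 fell under TMM (66.7%). Over all genes at that level 76.2% fell, and the difference was not tested. The oocyte growth factor gdf9 rose from 40.1 and 38.4 CPM to 69.5 and 65.7 CPM, and the germ plasm gene dnd1, which protects germ cells, fell from 263 and 279 CPM to 220.5 and 211 CPM. The germ plasm genes dazl and ddx25 had changes of -0.12 and -0.21 that were not called (adjusted p = 0.33 and 0.076). With the 4 compared libraries fitted alone under TMM both were called lower. Under total counts over all 44 libraries their changes were 0.04 and -0.05 and were not called.

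Of 50 localized maternal determinants and signalling components 11 fell (22%) and 10 rose (20%) under TMM, where 14.2% and 13.1% of all genes did. Under total counts 7 fell (14%) and 18 rose (36%), where 6.29% and 23.5% of all genes did. The shares of all genes are lowered by 6259 genes at 1 CPM per kb or less at the 4-cell stage. Of the 50 members, 46 reached 1 CPM in 8-cell embryos. Of the 16 members over 100 CPM per kb at the 4-cell stage 5 fell under TMM (31.2%). Over all genes at that level 76.2% fell, and the difference was not tested. The Wnt ligand wnt11b, which takes part in dorsal axis formation in Xenopus laevis, fell from 202 and 196 CPM to 142 and 140 CPM (log2 change -0.50 ± 0.07). The ubiquitin ligase trim36, needed for cortical rotation in Xenopus laevis, fell from 223 and 216 CPM to 144 and 158 CPM. The Nodal and Activin receptor acvr2b rose from 22.8 and 20.2 CPM to 33.0 and 33.8 CPM. Of the factors in the series title, otx1 rose by 0.40 on the log2 scale, and e2f1 stood at 578 and 570 CPM against 520 and 518 CPM, a change of -0.14 that was not called (adjusted p = 0.365). In a TMM fit of the 4 compared libraries alone e2f1 was called lower (adjusted p = 0.0008). Under total counts over all 44 libraries the e2f1 change was 0.01 and was not called. In cytokinesis and cortex genes 12 of 54 rose (22.2%) and 8 fell (14.8%, near the share of all genes) under TMM and 23 rose (42.6%) and 6 fell (11.1%) under total counts. Of the 21 at 20 to 100 CPM per kb at the 4-cell stage 6 rose (28.6%) and 0 fell under TMM. Over all genes at that level 10.2% rose and 31.4% fell. Of the 11 over 100 CPM per kb 7 fell (63.6%), where 76.2% of all genes did. These differences were not tested. The formin diaph1, which builds actin filaments of the cleavage furrow, rose from 67.4 and 70.0 CPM to 98.3 and 112 CPM, while the furrow GTPase rhoa fell by 0.39. Of 33 heat-shock and immediate early genes 6 rose (18.2%) and 3 fell (9.09%) under TMM, and 7 (21.2%) and 2 (6.06%) under total counts, near the shares of all genes. The constitutive chaperone hspa8 rose from 116 and 108 CPM to 194 and 196 CPM, and the stress-inducible hsp70 fell from 4.21 and 5.04 CPM to 2.89 and 2.55 CPM, a call lost without the second library of either stage.

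**Figure D4:**
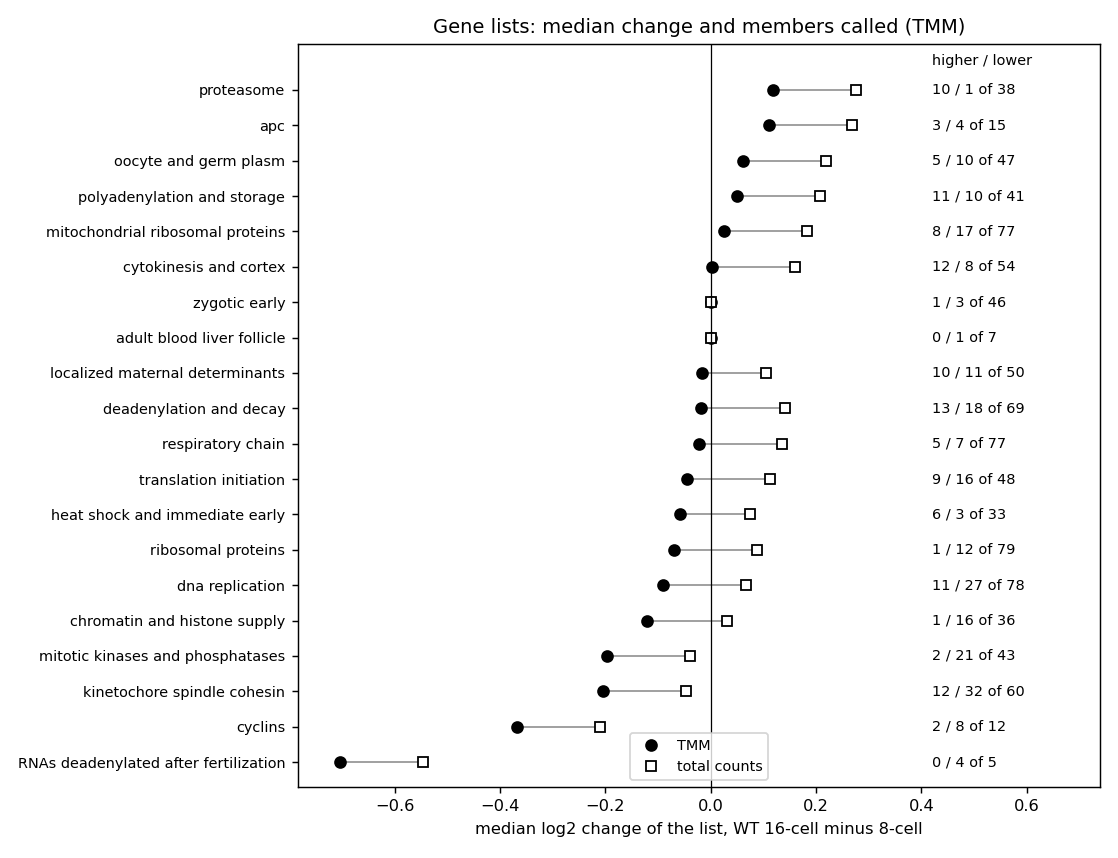
Median log2 change of each gene list from the 8-cell to the 16-cell stage in WT embryos, under TMM (filled circles) and total counts (open squares), with the numbers of members called higher and lower under TMM at right. The post-fertilization, cyclin, mitotic kinase and kinetochore lists have the lowest medians, the proteasome and the anaphase-promoting complex the highest, and the medians of DNA replication, chromatin supply, translation initiation and deadenylation lie below 0 under TMM and above 0 under total counts.

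The RNAs that gained most CPM were not those that changed by the largest fold. The largest gains were in btg5.1 (584 and 557 CPM to 780 and 752 CPM; a near copy, btg5.3, may share its reads), plekha4, prrc2b, top1.1 and arid1a. The pleckstrin-homology protein plekha4 rose from 183 and 167 CPM to 308 and 336 CPM (log2 change 0.88 ± 0.10, adjusted p = 7.49e-08), along a course from 112 and 120 CPM at the 4-cell stage to 421 and 415 CPM at stage 6. In E2F1 MO embryos it went from 211 and 215 CPM to 332 and 359 CPM. The topoisomerase top1.1, which relaxes supercoiled DNA, rose from 304 and 309 CPM to 415 and 471 CPM. A different course was seen in arid1a, a subunit of the SWI/SNF chromatin remodeller. Its level was 353 and 318 CPM at the 4-cell stage, 251 and 235 CPM at the 8-cell stage and 358 and 378 CPM at the 16-cell stage. The RNA-binding protein gene prrc2b had 268 and 266 CPM, then 200 and 187 CPM, then 318 and 343 CPM. For both, the 8-cell libraries were the lowest of the early WT libraries, the E2F1 MO change was not called (0.03 and 0.21), and each of the 4 ways of leaving out a library ended the call (adjusted p up to 0.204 and 0.183).

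The largest fold rises were in scarce RNAs. Under the rule that the higher group reach 5 CPM they were man1a2, ash1l, galnt5, osbpl11, pex6, hspg2, gbp5, rtel1, tbc1d25 and rxra, with log2 changes of 1.72 to 1.27. The Golgi mannosidase man1a2 rose from 1.87 and 1.92 CPM to 5.48 and 6.93 CPM (1.72 ± 0.28, adjusted p = 1.55e-05) and stood at 9.21 and 8.66 CPM at stage 6. The peroxisomal ATPase pex6 rose from 2.98 and 3.38 CPM to 7.59 and 8.97 CPM, and the guanylate-binding protein gbp5 from 3.98 and 4.79 CPM to 11.1 and 10.7 CPM. In these 3 both 16-cell libraries were more than 2-fold above both 8-cell libraries. The calls of ash1l, galnt5, hspg2, rtel1 and rxra were each lost without at least 2 of the 4 libraries in turn. None of the 10 was called in E2F1 MO embryos, where 9 had a positive change and galnt5 a change of -0.42. Over all 44 genes that rose by at least 2-fold and reached 5 CPM, 12 were called higher in E2F1 MO embryos, where 7.56% of all genes were, and 43 had a positive change there. From the 4-cell stage to stage 6, 42 of the 44 were called higher, against 24.5% of all genes.

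The largest fold falls at 5 CPM or more were in tp63, arhgap36, myb, tnc, atp2c2, chn2, id3, hdac9, btg5.3 and dlc, with log2 changes of -2.18 to -1.11, and the mean of each was higher at the 8-cell than at the 4-cell stage, from 30.8 to 31.6 CPM in hdac9 and from 1.37 to 5.56 CPM in arhgap36. The proto-oncogene myb, a transcription factor of progenitor cells, had 14.5 and 19.2 CPM at the 4-cell stage, 30.8 and 33.8 CPM at the 8-cell stage, 8.92 and 10.2 CPM at the 16-cell stage and 13.2 and 15.9 CPM at stage 6. Its log2 change in this step was -1.75 ± 0.23 (adjusted p = 1.28e-06). The epidermal transcription factor tp63 had 2.69 and 4.49 CPM, then 7.14 and 6.26 CPM, then 0.904 and 1.98 CPM. Both 8-cell libraries of myb and tp63 lay above the 6 libraries of the 4-cell stage, the 16-cell stage and stage 6. In E2F1 MO embryos myb went from 10.7 and 7.57 CPM to 10.9 and 15.8 CPM and tp63 from 3.47 and 1.92 CPM to 3.91 and 6.18 CPM. The histone deacetylase hdac9 had 30.2 and 31.5 CPM at the 4-cell, 32.6 and 30.6 CPM at the 8-cell and 12.9 and 15.4 CPM at the 16-cell stage, with overlapping libraries at the first 2 of these stages. The chn2 call was lost without the first 16-cell library (adjusted p = 0.065), and that of id3 without the first 8-cell library or either 16-cell library (adjusted p up to 0.0956).

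Over all genes, both 8-cell libraries lay above the 6 libraries of the neighbouring WT stages in 472 genes (2.94%) and below them in 607 (3.78%). Among the 95 genes called lower by at least 2-fold, 61 had this 8-cell peak, and 88 had a higher mean at the 8-cell than at the 4-cell stage. The median 8-cell level of the 95 was 2.19 CPM. Among the 166 genes called higher by at least 2-fold, 51 had both 8-cell libraries below those 6, and 111 had a lower mean at the 8-cell than at the 4-cell stage. Of the 166, 27 were called higher in E2F1 MO embryos (16.3%), where 7.56% of all genes were. From the 4-cell stage to stage 6, 116 (69.9%) were called higher. Choosing genes by a fall from the 8-cell stage favours a high 8-cell value, and choosing by a rise a low one, so these counts are a description. In E2F1 MO embryos, which share no library with the WT comparison, 3 of the 95 were called lower (3.16%) and 4 higher, with a median log2 change of 0.05. In the 2188 genes that fell by less than 2-fold, 1179 were called lower there (53.9%). The share called lower over all genes in E2F1 MO embryos was 9.18%, and fewer changes can be called at low levels. Of the 18 genes that fell by at least 2-fold and reached 5 CPM, 2 were called lower in E2F1 MO embryos, and 9 had a positive and 9 a negative change there.

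The moderate changes recurred in libraries that the comparison did not use. In E2F1 MO embryos 2688 genes (16.7%) were called from the 8-cell to the 16-cell stage, 1214 (7.56%) higher and 1474 (9.18%) lower. Under total counts 2782 (17.3%) were, 2186 (13.6%) higher and 596 (3.71%) lower. Of the 2099 WT rises 911 (43.4%) were called higher in E2F1 MO embryos and 1 lower, and of the 2283 WT falls 1182 (51.8%) were called lower and 6 higher. Counted from the other side, 75.0% of the E2F1 MO rises and 80.2% of its falls were WT calls of the same direction. Over the 9192 genes that reached 5 CPM in a WT group, the WT and E2F1 MO log2 changes had a Pearson r of 0.716 and a Spearman rho of 0.759 across genes, which are not independent replicates. The median log2 change of the WT rises was 0.27 there against 0.46 in WT, whose own values chose the genes. Without the second 8-cell or the second 16-cell E2F1 MO library 1289 and 1155 genes were called in E2F1 MO embryos. Their 8-cell libraries had 53.7 and 54.3% of counts in the WT falls, between the 8-cell and 16-cell WT libraries, and their 16-cell libraries 49.9 and 49.5%. The WT libraries chose these genes, which by itself favours a place of other libraries between them. This choice, the morpholino, the injection, the clutch and the exact age at collection cannot be told apart in that difference of the 8-cell libraries. In 4-cell libraries, which did not choose the genes, the share was 55.6 and 56.5% in E2F1 MO and 57.9 and 58.3% in WT embryos. The difference at the 4-cell stage was not tested. From the 4-cell stage to stage 6 in WT embryos 7726 genes (48.1%) were called, 3943 (24.5%) higher and 3783 (23.5%) lower, and under total counts 8136 (50.6%), 6264 (39%) higher and 1872 (11.7%) lower. Of the WT rises 1916 (91.3%) were called higher over that longer span and 3 lower, and of the WT falls 2087 (91.4%) were called lower and 8 higher. For the genes that fell under both scalings the shares were 70.7% in E2F1 MO embryos and 92.0% from the 4-cell stage to stage 6.

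A test of the difference between the WT and the E2F1 MO change called 18 genes (0.112%), 6 (0.0374%) more positive and 12 (0.0747%) more negative in WT. Under total counts it called 24 (0.149%), 13 (0.0809%) more positive and 11 (0.0685%) more negative. The named genes among them were myb, tp63 and pex6. Leaving out 1 of the 8 libraries in turn gave 2 to 25 calls: myb kept its call each time, tp63 lost it without 4 of the libraries and pex6 without 7. For kif11, kif2c and aurka the change was nearly equal in both, -0.84, -0.80 and -0.59 in E2F1 MO embryos, and the difference was not called (adjusted p of 1, 0.896 and 0.78). The differences were -0.03 ± 0.10, -0.07 ± 0.08 and -0.11 ± 0.10 (SE) on the log2 scale.

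**Figure D5:**
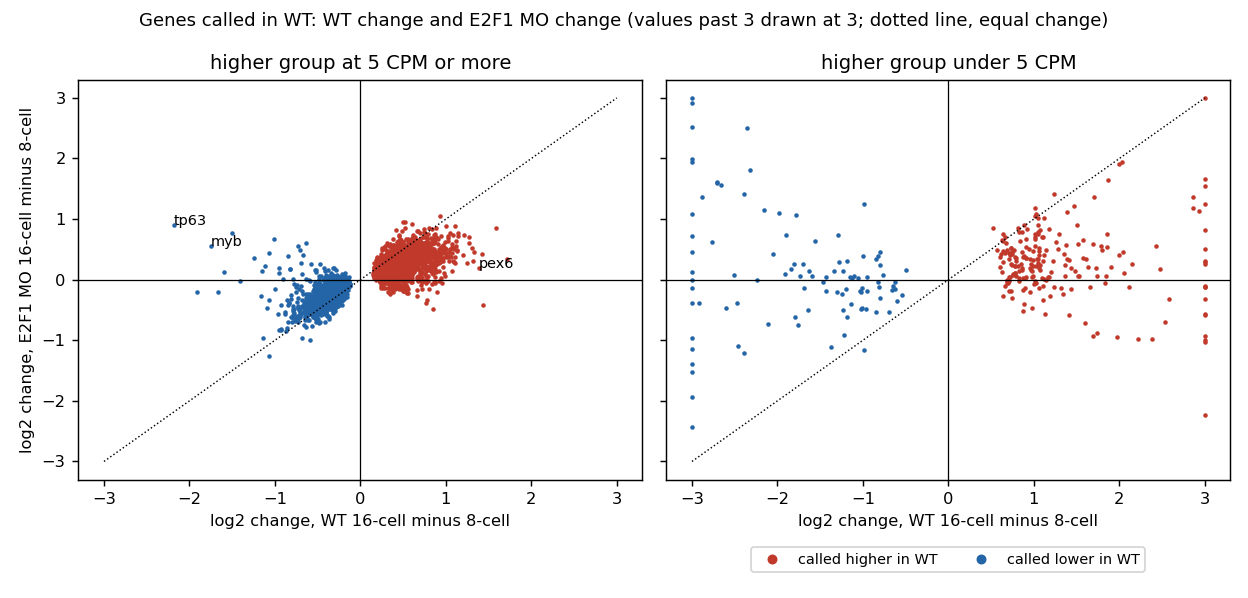
Log2 change from the 8-cell to the 16-cell stage in E2F1 MO embryos (vertical) against WT embryos (horizontal) for genes called in WT, split by whether the higher WT group reached 5 CPM; red genes were called higher and blue lower in WT, and values past 3 are drawn at 3. At 5 CPM or more the points follow the diagonal in part, with tp63, myb and pex6 off it. Under 5 CPM the E2F1 MO changes of red and of blue genes lie on both sides of 0.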

How the data were processed

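The authors deposited 1 table of raw read counts per gene for 44 libraries. Per the labels' protocols, total RNA was extracted and sequenced with a stranded mRNA kit. Per the submitters' processing notes, the tools were fastp, STAR 2.7.0e, featureCounts 2.0.1 and deepTools. The genome build, annotation and strand setting were not given in the sources used; therefore overlapping and antisense genes, and near copies, may share reads. Counts were fitted with edgeR 4.0.16 (limma 3.58.1, R 4.3.3) by the robust quasi-likelihood test over all 44 libraries with 1 mean per group, TMM factors, and genes kept by filterByExpr at a minimum count of 10. This left 16064 genes, and 12714 were not tested. Adjustment was by Benjamini-Hochberg over all genes tested, with calls at 0.05, and 22 residual degrees of freedom. The biological coefficient of variation was 6.11%. A level of 3 counts was 0.146 to 0.168 CPM in the 4 libraries, and such floors cover counting error only. On simulated counts for the same comparison over 16064 genes, 36% of 50 genes changed 1.3-fold, 74% at 1.5-fold, 92% at 2-fold and 100% at 4-fold were recovered. The simulation changed 50 genes at each fold and left the rest equal between the stages, where 4382 genes were called in the data. Changed genes were drawn from those at 1 CPM or more at the 8-cell stage, so the shares do not cover scarcer genes. Among the unchanged genes 6 were called. Adjustment is stricter when fewer genes change, so these shares do not give the recovery in the data.

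Alternatives were total-count scaling, RLE factors, other filters (none, and a minimum count of 50), fewer libraries in the fit, a replicate block, each library left out, and DESeq2 1.42.0. Genes named by rule were the 10 largest rises and falls by log2 change called under both scalings at 5 CPM or more in the higher group with libraries that do not overlap, the 5 largest gains and losses of CPM, and, from each list, as many as 4 called members with the largest change. Other called members that are named were picked after their values were seen. The members and lists were chosen with earlier results of these data known. Some genes are not reported here.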

Additional observations from a re-analysis of the deposited data

Results flagged for a closer look

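3 of the named genes changed differently in WT and E2F1 MO embryos from the 8-cell to the 16-cell stage, by edgeR's test of the difference itself. For myb the difference of the log2 changes, WT minus E2F1 MO, was -2.30 (adjusted p = 0.0027), and it was called with each of the 8 libraries left out in turn (adjusted p up to 0.0346). For tp63 the difference was -3.08 (adjusted p = 0.013), a call lost without the first library of either WT stage or the second library of either E2F1 MO stage (adjusted p up to 0.156). For pex6 it was 1.19 (adjusted p = 0.03), a call lost without any library other than the first E2F1 MO 16-cell library (adjusted p up to 0.22). By edgeR's test within a stage, E2F1 MO minus WT for myb was -1.81 at the 8-cell (adjusted p = 3.87e-06) and 0.49 at the 16-cell stage (adjusted p = 0.397). For tp63 the values were -1.28 (adjusted p = 0.0388) and 1.79 (adjusted p = 0.00916). For pex6 they were 0.48 (adjusted p = 0.217) and -0.71 (adjusted p = 0.00374). WT and E2F1 MO embryos may come from different clutches, which cannot be told apart from the morpholino.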

How the results depend on the processing

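Scaling by total counts gave 3778 WT rises and 1011 falls in place of 2099 and 2283, 2186 and 596 in E2F1 MO embryos in place of 1214 and 1474, 6264 and 1872 from the 4-cell stage to stage 6 in place of 3943 and 3783, and 13 positive differences between WT and E2F1 MO in place of 6. By construction it adds the shift of 0.16 to the log2 change of WT embryos. The sign of ctnnb1 turned from a value just below 0 to a called rise of 0.16, and e2f1, dazl, alyref, slbp, oaz1, pfn1 and orc4, not called under either scaling, turned from negative to positive values of 0.01 to 0.15. Leaving out 1 library gave 2897 to 3492 WT calls (1338 to 1609 rises, 1559 to 1883 falls), 1155 to 2125 in E2F1 MO embryos (505 to 1021 rises, 650 to 1104 falls), 6662 to 7095 from the 4-cell stage to stage 6, and 2 to 25 for the difference (0 to 7 positive, 2 to 19 negative). The lone library of a stage is then assumed to vary like the other groups. Of 171 genes whose settings were compared, 151 were called, and 57 of these lost the call without at least 1 library. RLE factors, no filter, a stricter filter, fewer libraries in the fit and DESeq2 gave 4411 to 5731 WT calls, with 41.9 to 49.6% of them higher. Replicate numbers only share a number: with the replicate block 4327 genes were called in WT embryos, 2630 in E2F1 MO embryos, 17 for the difference and 7666 from the 4-cell stage to stage 6, and same-numbered libraries deviated together with r of -0.05 in WT and -0.03 in E2F1 MO embryos across the 8- and 16-cell stages, and 0.14 across the WT 4-cell stage and stage 6. The calls of arid1a, dnaja1, dhfr and eif4a2 were lost with the block (adjusted p of 0.0537, 0.0509, 0.0507 and 0.0525). A 1.3-fold change was recovered in 36% of cases on simulated data, in genes at 1 CPM or more. Far fewer genes changed there than were called here.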

Other observations

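The anaphase-promoting complex is the ubiquitin ligase that ends mitosis. Of 15 genes tested, its core subunits and the E2 conjugating enzymes ube2c and ube2s, 3 rose and 4 fell under TMM, and 7 rose and 3 fell under total counts (20%, 26.7%, 46.7% and 20% of the 15, against 13.1%, 14.2%, 23.5% and 6.29% of all genes), with a median log2 change of 0.11 and 0.27. Its 4 members over 100 CPM per kb at the 4-cell stage all fell under TMM, as did 76.2% of all genes at that level. The shares of all genes are lowered by 6259 genes at 1 CPM per kb or less at the 4-cell stage. All 15 members reached 1 CPM in 8-cell embryos.

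Calls also varied with gene length. Under TMM, 3.42% of genes of up to 1000 bases were called higher and 11.3% lower, and of the 781 genes over 8000 bases 15.6% were higher and 4.23% lower. Under total counts the shares were 6.64% higher and 4.64% lower in the short genes, where the balance turned, and 29.6% and 2.05% in the long ones. The part of length apart from level was not tested.

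The RNA of ppia, a peptidyl-prolyl isomerase, stood at 115 and 108 CPM in 8-cell and 133 and 129 CPM in 16-cell WT embryos, and at 44.9 and 45.4 CPM and 41.1 and 47.0 CPM in E2F1 MO embryos. All 4 WT libraries were more than 2-fold above all 4 E2F1 MO libraries. The gene was picked after its values were seen.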
